A study of Zea mays with 4 samples.

Results

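RNRL1, pcna1 and MCM6 are maize genes for the copying of DNA during S phase, the stretch of the cell cycle in which the genome is duplicated. RNRL1 (GeneID:110017794) encodes a large subunit of ribonucleotide reductase, pcna1 (GeneID:542425) encodes the sliding clamp PCNA, and MCM6 (GeneID:542206) encodes a subunit of the replicative helicase. They were taken by gene number as 3 of the 48174 genes in the deposited count table. The data are RNA-seq of total cellular RNA from Zea mays B73, the inbred line behind the maize reference genome. There was 1 group of 4 samples, labelled as biological replicates. In each, seedlings 3 days old had spent 2 h in swirled water at 28 °C before the last 1 mm was cut from primary and seminal roots alike and pooled, so the root types cannot be told apart. No untreated group was analysed here, and every statement below concerns levels, ratios and the spread between these 4 libraries. Nothing in the labels says that the samples came from separate seed batches, so the tests measure the spread between these samples only, which may be partly technical.

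Ribonucleotide reductase turns ribonucleotides into the deoxyribonucleotides from which DNA is built, and works as a complex of large and small subunits. The MCM helicase is loaded onto replication origins before S phase and unwinds the double helix at the fork. PCNA is a ring that encircles DNA behind the fork and holds DNA polymerase and other factors, such as the flap endonuclease FEN1, in place. In plants, as in animals, genes of these families are known targets of E2F transcription factors, which some retinoblastoma-related proteins hold back outside S phase. In a root tip they are transcribed chiefly in the dividing cells of the meristem.

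Library totals ran from 23385589 to 26829395 counts. At these depths a count of 0 would allow up to 0.112 to 0.128 CPM (counts for each 1000000 counts in the library), taken as 3 counts of the total and covering counting error only. In bulk RNA, fewer cells of a type and less RNA per cell cannot be told apart. Of 5 root apex genes 4 were detected, meaning that no library fell below 1 CPM. The SCARECROW gene SCR stood at 40.3 ± 2.7 CPM, the auxin efflux gene PIN1a at 197 ± 8.15 CPM and rld2 at 46.0 ± 2.65 CPM (SD, n = 4). PIN1d was far lower, at 2.38 ± 0.321 CPM, and the homeobox gene wox5B, at 1.00 ± 0.0851 CPM, was not detected by that rule. Of 9 photosynthesis genes and 44 zein seed storage genes, 0 were detected, and of 4 xylem genes 1 was. Of all 48174 genes, 20971 were detected.

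The ribonucleotide reductase gene RNRL1 drew the most reads of the trio. It stood at 255, 249.65, 243 and 232 CPM in replicates 1 to 4, from 6674, 6053, 6507 and 5427 counts, with a mean of 245 ± 10.1 CPM (SD, n = 4). Replicate 1 was highest and replicate 4 lowest, a ratio of 1.10 between them. By reads RNRL1 ranked 625th of all genes on its mean, between 593rd and 671st in single libraries, above 97.0% of the detected genes.

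The clamp gene pcna1 stood at 135, 122, 112 and 127 CPM in replicates 1 to 4, from 3527, 2966, 3007 and 2970 counts, with a mean of 124 ± 9.56 CPM (SD, n = 4). Its highest library was also replicate 1, but its lowest was replicate 3, with a ratio of 1.20 between the highest and the lowest. On its mean pcna1 ranked 1664th by reads, between 1491st and 1904th in single libraries.

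The helicase gene MCM6 stood at 131, 122, 109.99 and 131 CPM in replicates 1 to 4, from 3417, 2961, 2951 and 3071 counts, with a mean of 124 ± 9.97 CPM (SD, n = 4). Replicates 1 and 4 were high and close together, and replicate 3 was lowest, as for pcna1. MCM6 ranked 1673rd by reads on its mean, 9 places below pcna1, and in single libraries its rank ran from 1526th to 1958th. The spans of CPM of pcna1 and MCM6 overlapped over most of their length, and that of RNRL1 lay wholly above both.

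**Figure D1:**
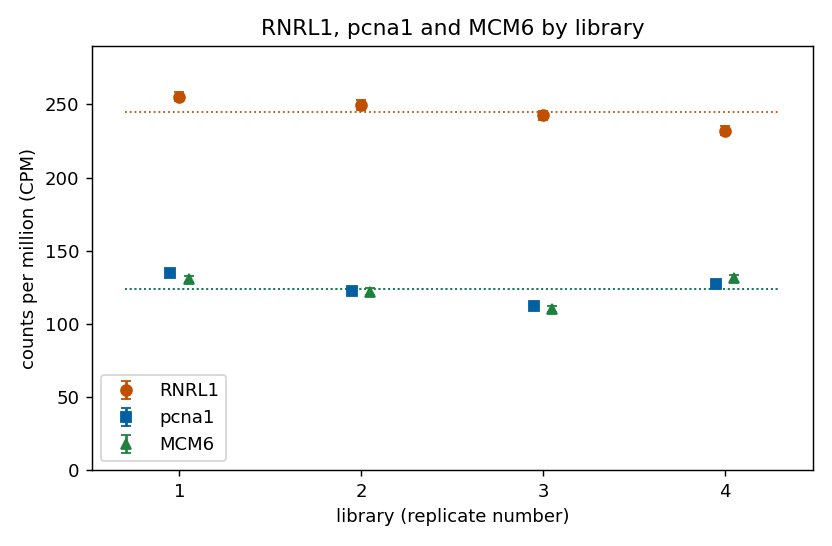
CPM (linear axis from 0) of RNRL1, pcna1 and MCM6 in each of the 4 libraries; bars are the counting error (square root of the count) and dotted lines the means. RNRL1 sits near 245 CPM with its lowest point in replicate 4, while pcna1 and MCM6 sit near 124 CPM with their lowest points in replicate 3.

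These CPM values are reads, not molecules. A longer transcript yields more reads, and no transcript lengths were at hand, so the order of the genes by reads is not an order by transcript number. The constancy of a read ratio from library to library does not depend on length or on library scaling, and the ratios are given in that sense. Counts of all 3 genes were whole numbers in all 4 libraries (tolerance 0.001), whereas 5.17% to 5.64% of nonzero values in a library were not. The sources used here do not say how reads shared by near-identical copies were counted, and the split of reads between pcna1 and pcna2, and between RNRL1 and RNRL2, is of uncertain accuracy.

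The reads of pcna1 and MCM6 stayed in nearly the same proportion in every library. The ratio of pcna1 to MCM6 reads was 1.03 in replicate 1 (exact binomial 95% interval 0.984 to 1.08), 1.00 in replicate 2 (0.952 to 1.05), 1.02 in replicate 3 (0.968 to 1.07) and 0.967 in replicate 4 (0.919 to 1.02). All 4 intervals overlap and each includes a ratio of 1. The log2 ratio had a mean of 0.01 and an SD of 0.04 (n = 4). Counting error alone would give an SD of 0.0367, and the observed SD was 1.11 times that, so a change in the proportion between libraries was not detectable at this depth. Each gene alone spread by more: the SD of log2 CPM was 0.11 for pcna1 and 0.12 for MCM6.

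RNRL1 did not keep a fixed proportion to either gene. It had 1.89, 2.04, 2.16 and 1.83 reads for each pcna1 read in replicates 1 to 4, and 1.95, 2.04, 2.21 and 1.77 for each MCM6 read. Both ratios were highest in replicate 3 and lowest in replicate 4. For RNRL1 to MCM6 the exact binomial 95% interval was 2.11 to 2.30 in replicate 3 and 1.69 to 1.85 in replicate 4, and these do not overlap. For RNRL1 to pcna1 they were 2.07 to 2.26 and 1.75 to 1.91, again without overlap. The mean log2 ratio was 0.98 ± 0.11 to pcna1 and 0.99 ± 0.13 to MCM6 (SD, n = 4), and these SDs were 3.45 and 4.19 times what counting error gives. The intervals cover counting error only, and the 2 libraries compared are the extremes, picked after the values were seen. Over all genes of 20 CPM or more the median SD of the log2 ratio was 0.12 to pcna1 and 0.13 to MCM6. SDs of this size were therefore common and not particular to RNRL1.

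**Figure D2:**
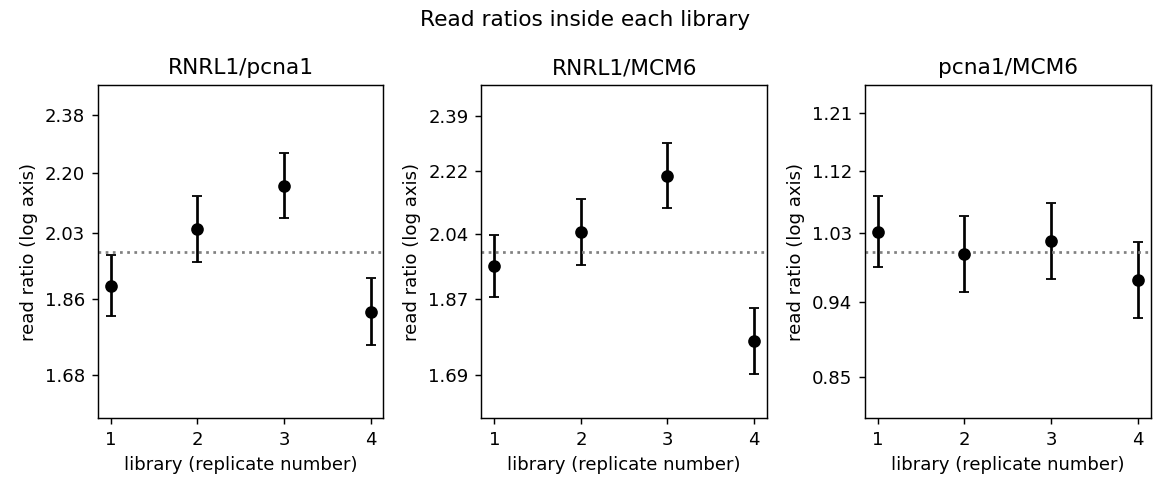
Read ratio of each pair of genes (log axis, with the same relative span in each panel) in the 4 libraries, with exact binomial 95% intervals; the dotted line is the mean. The pcna1 to MCM6 ratio stays between 0.967 and 1.03 with overlapping intervals, whereas both RNRL1 ratios peak in replicate 3 and are lowest in replicate 4.

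Whether each gene differed between libraries at all was asked with a chi-square test of its 4 counts against Poisson counting error, run on 22752 genes with Benjamini-Hochberg adjustment. All 3 genes varied beyond counting error, with an adjusted p of 1.55e-05 for RNRL1, 3.91e-11 for pcna1 and 4.88e-12 for MCM6. Of all genes tested, 26.0% did so. Of the 1740 genes between 100 and 300 CPM, a band chosen after the levels were seen, 66.3% did so, so 3 of 3 is not a result about these genes. RNRL1 lost its call without replicate 4 (adjusted p 0.0546), and without replicate 3 MCM6 passed narrowly (adjusted p 0.0484).

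Over all 4 libraries RNRL1 spread less than the pair, and this rested on replicate 3. The coefficient of variation was 4.10% for RNRL1, where counting error alone gives 1.27%, against 7.70% for pcna1 and 8.07% for MCM6, where counting error gives 1.79% and 1.80%. The median gene of 100 to 300 CPM had 3.93%. In that band 46.8% of genes had a larger coefficient than RNRL1, 10.6% a larger one than pcna1 and 9.08% a larger one than MCM6. In edgeR's quasi-likelihood test of each gene's dispersion against that of genes of equal abundance, which called 0.0396% of genes, none of the 3 passed: the dispersion was 0.799 times the trend for RNRL1 (edgeR adjusted p 0.995), 2.97 times for pcna1 (edgeR adjusted p 0.958) and 3.41 times for MCM6 (edgeR adjusted p 0.886). Without replicate 3 the coefficients were 4.95%, 4.99% and 4.03% for RNRL1, pcna1 and MCM6, and the dispersions 1.69, 1.66 and 1.26 times the trend, so the order was not kept. Unadjusted p-values in edgeR were 0.526, 0.0911 and 0.0678 with all libraries; 5.95% of all tested genes were below 0.05, so 0 of 3 says nothing about these genes. In DESeq2, 0 of 3 were dispersion outliers.

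**Figure D3:**
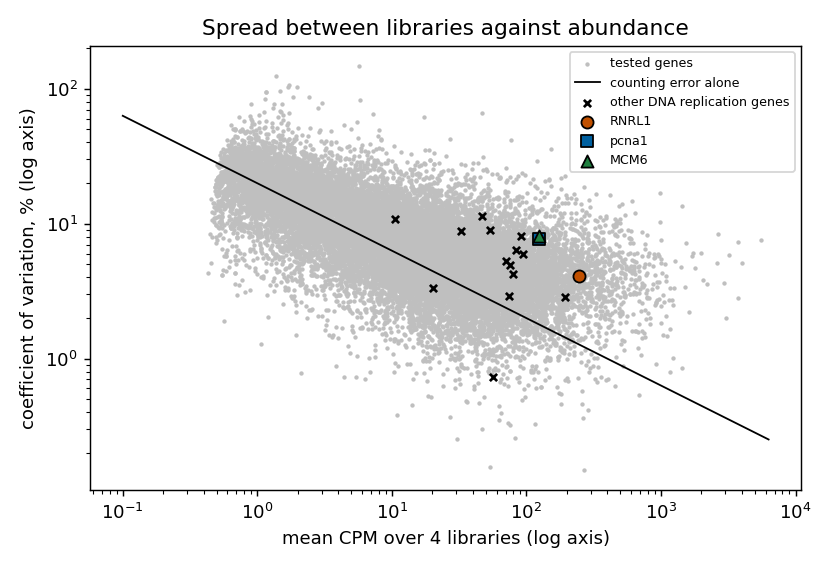
Coefficient of variation over the 4 libraries against mean CPM (both log axes) for the 22752 tested genes in grey, the 14 other DNA replication genes as crosses and the 3 genes as large symbols; the line is counting error alone. RNRL1 at 4.10% lies in the middle of genes of its abundance, and pcna1 and MCM6 at 7.70% and 8.07% lie in the upper part of the cloud, which rests on replicate 3.

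The deviations from each gene's own mean show where the genes part. In replicate 3 pcna1 was at -9.68% and MCM6 at -10.97% relative to their means, while RNRL1 was at -0.971%. In replicate 4 pcna1 was at 2.34% and MCM6 at 6.29%, while RNRL1 was at -5.24%. In replicate 1 all 3 were above their means, by 8.76%, 5.84% and 4.28% for pcna1, MCM6 and RNRL1, and in replicate 2 they were at -1.42%, -1.15% and 1.93%. With 4 libraries no correlation between genes is given.

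Likeness of pattern was instead measured as the SD of the log2 read ratio over the 4 libraries, among the 9788 genes with a mean of 20 CPM or more. A small SD means a steady ratio, from genes that moved alike or that both barely moved. A large SD can also come from genes that moved the same way by unlike amounts. From pcna1, MCM6 was the 239th closest of 9787 other genes, within the nearest 2.44%, and RNRL1 was at 42.4%. From MCM6, pcna1 was the 234th closest, within the nearest 2.39%, and RNRL1 was at 56.4%. From RNRL1, pcna1 and MCM6 were at 70.5% and 84.9%, farther than the median gene: the SDs were 0.11 and 0.13 against a median of 0.09. All of these genes share the same 4 libraries and their composition, and no test was made. The nearness of pcna1 and MCM6 leaned on replicate 3. Without it MCM6 was at 15.5% from pcna1 and pcna1 at 22.3% from MCM6, while the SD of their log2 ratio was 0.05. Without replicate 4 they were at 0.746% and 1.39%, without replicate 1 MCM6 was at 8.99% from pcna1, and without replicate 2 the pair was at 5.32% and 4.36%. Among the RNRL1 placings, pcna1 was at 46.0% from RNRL1 without replicate 3, RNRL1 was at 65.9% from pcna1 without replicate 1, and without replicate 4 RNRL1 was at 26.3% from pcna1 and 26.4% from MCM6.

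**Figure D4:**
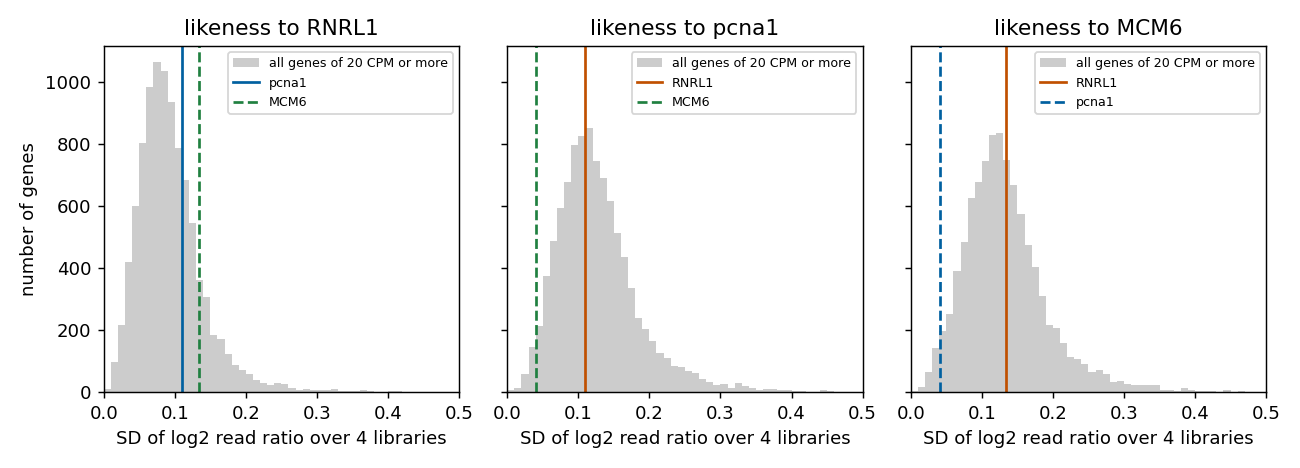
Number of genes by the SD of their log2 read ratio to RNRL1, pcna1 and MCM6 over the 4 libraries, with vertical lines for the other 2 genes; the axis ends at 0.5, beyond which lie 4, 8 and 7 genes. MCM6 and pcna1 lie in the left tail of each other's distribution, and both lie right of the peak for RNRL1.

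The genes closest in pattern mostly had names that give no function, so whether they act in replication could not be read from them. For RNRL1 they were LOC100278140 (SD of the log2 ratio 0.00333), LOC100279429 (0.00485) and LOC100384121 (0.00572). For pcna1 they were LOC100279932 (0.00779), LOC100273978 (0.00822) and LOC100282296, also named PDIL5-3 (0.00882). For MCM6 they were LOC100276765 (0.00627), LOC100280074 (0.0087) and LOC100273845 (0.00879). All 9 SDs lie below what counting error alone gives for the same pair (0.0261 to 0.0680), and with any replicate left out only 1 of 36 places among the nearest 3 was kept, so the identity of the nearest genes is not settled by 4 libraries.

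The reductase genes did not share 1 low library, while pcna1, pcna2, MCM6 and MCM7 were all lowest in replicate 3. Of all tested genes 30.4% were lowest there. Among MCM helicase genes only MCM6 and MCM7 were listed here, and its other subunits were not examined. Of the other ribonucleotide reductase genes, RNRL2, a second large subunit gene, stood at 99.1, 98.5, 86.8 and 95.3 CPM in replicates 1 to 4 (mean 94.95 ± 5.66 CPM, SD, n = 4). It was lowest in replicate 3, unlike RNRL1, and the ratio of RNRL1 to RNRL2 reads was highest there, at 2.79 against 2.43 to 2.58 in the other libraries. The small subunit genes RNRS1, RNRS3 and RNRS2 stood at 83.4 ± 5.31, 74.96 ± 3.69 and 46.8 ± 5.35 CPM. RNRS1 and RNRS3 were lowest in replicate 3. In pattern RNRL2, RNRS1 and RNRS3 lay within the nearest 7.44%, 1.87% and 6.96% of genes to pcna1, and at 46.1%, 43.3% and 19.03% from RNRL1. RNRS2 stood at 50.9, 51.4, 44.6 and 40.2 CPM and was lowest in replicate 4, as was RNRL1. Its deviations from its mean in replicates 1 to 4 were 8.73%, 9.95%, -4.70% and -13.98%. Those of RNRL1 were 4.28%, 1.93%, -0.971% and -5.24%, of the same signs but smaller. RNRS2 lay at 72.95% from RNRL1 by the SD of the log2 ratio, which also counts the size of the swings. Its coefficient of variation, 11.4%, was the largest of the 17 DNA replication genes. RNRL1 took 44.96 ± 1.03% of the reads of the 5 reductase genes (SD, n = 4), between 44.2% and 46.5%, and there were 0.603 ± 0.0150 small subunit reads for each large subunit read.

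The second clamp gene, pcna2, stood at 74.0, 72.2, 65.4 and 71.4 CPM in replicates 1 to 4 (mean 70.8 ± 3.74 CPM, SD, n = 4) and was lowest in replicate 3, like pcna1. There were 1.75 ± 0.0595 pcna1 reads for each pcna2 read, and the SD of that log2 ratio was 1.14 times counting error. MCM7, another helicase subunit gene, stood at 95.2, 88.8, 82.0 and 98.7 CPM (mean 91.2 ± 7.38 CPM, SD, n = 4), with the same high and low libraries as MCM6. There were 1.36 ± 0.0231 MCM6 reads for each MCM7 read in the 4 libraries, with a log2 SD of 0.02, or 0.619 times counting error. From MCM6, MCM7 was the 40th closest gene, within the nearest 0.409%.

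A list of 17 DNA replication genes, the 3 genes among them, was drawn by name. All 17 were detected, against 20971 of all 48174 genes. Their means ran from 10.6 CPM for SLD5, a gene of the GINS helicase cofactor, to 245 CPM for RNRL1. Beside the genes above, Top1, for topoisomerase I, which relieves the twist ahead of the fork, stood at 194 ± 5.57 CPM, and FEN1, for the flap endonuclease that trims Okazaki fragments, at 79.4 ± 3.35 CPM (SD, n = 4). The 4 origin recognition genes orc1 to orc4 and the thymidine kinase gene tk1 lay between 20.3 and 74.0 CPM. Counts of orc1 and orc3 were not whole in 1 library each. By the chi-square test 13 of the 17 varied beyond counting error (10 of the 14 others), against 26.0% of all genes and 34.1% of genes within the list's range of mean CPM, many of which are less abundant than the list's median gene. The count was 8 without replicate 1, where 20.2% of all genes passed, and 7 without replicate 3, where 13.4% did. By edgeR's test 0 of 17 varied more than genes of equal abundance, with a median dispersion of 1.67 times the trend against 0.858 for all tested genes.

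Replicate 3 was the low library for most of the list. In it 12 of the 17 genes had their lowest value, 10 of the 14 beside the 3 genes, and 1 of 17, orc4, its highest. Of all tested genes 30.4% were lowest there, and of those of 100 to 300 CPM 36.2% were. The median deviation there was -0.09 on the log2 scale (-0.08 for the 14) against -0.01 for all tested genes. Replicate 1 held the highest value of 11 of the 17, against 26.8% of all tested genes and 31.2% of those of 100 to 300 CPM. RNRL1 and RNRS2 were the 2 genes lowest in replicate 4. Of the list, pcna1 was closest in pattern to orc1 (SD of the log2 ratio 0.03, within the nearest 1.02% of genes), which was named after its values were seen, then to RNRS1 (1.87%). RNRL1 was closest to FEN1 (0.04, 10.4%).

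**Figure D5:**
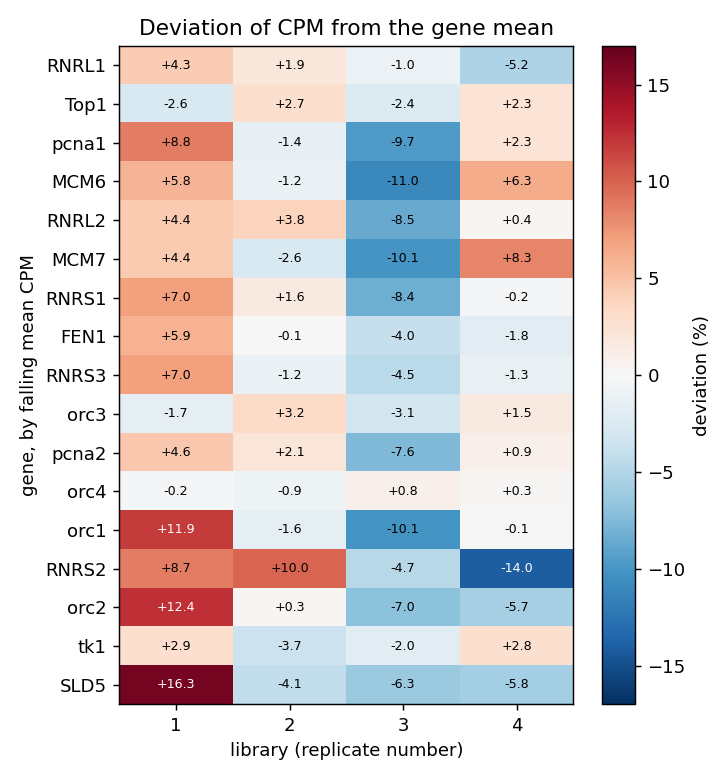
Percent deviation of CPM from the gene's own mean in each library (colour and printed values) for the 17 DNA replication genes, ordered by mean CPM. Most genes are blue in replicate 3, with pcna1 at -9.68% and MCM6 at -10.97%, while RNRL1 is near its mean there and lowest in replicate 4.

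Other gene groups did not share 1 direction in replicate 3. The 3 mitotic cyclin genes cyc1, cyc2 and cyc3 summed to 117 CPM there against 131 to 133 CPM in the other libraries. In that library 3 of 3 were lowest, against 30.4% of all tested genes. By the chi-square test cyc1 did not vary beyond counting error (adjusted p 0.164). The 16 expansin genes, which mark elongating cells, summed to 757 CPM there against 628 to 655 CPM in the others; 9 of the 16 were detected and 4 were at 0 in every library. One gene, expB2, carried most of that sum, with 450.4, 487, 564 and 470.5 CPM in replicates 1 to 4, and without it the other expansins summed to 193 CPM in replicate 3 against 166 to 177 CPM. Of the 10 expansins tested, 5 were highest in replicate 3 (25.8% of all tested genes were), 4 were highest in replicate 1, and expa2 was lowest in replicate 3. Core histone transcripts accumulate in S phase. The 6 core histone genes listed here, which need not be the whole family, summed to 1695 CPM in replicate 3 against 1627 to 1670 CPM in the others. That sum was the highest, but replicate 1, at 1627 CPM, lay farther from their mean sum of 1663 CPM. Of the 6, 0 were lowest in replicate 3 and 4 in replicate 1, against 30.4% and 22.7% of all tested genes. Of 5 tested regulators of entry into S phase, 1 was lowest in replicate 3 and 3 were highest there. The shares of all tested genes were 30.4% and 25.8%. The 1 lowest there was rbr3, a retinoblastoma-related gene, at 99.3, 88.1, 81.6 and 95.8 CPM in replicates 1 to 4. RBR1 (70.2 ± 3.49 CPM), RBR2 (24.4 ± 1.34 CPM) and the D-type cyclin gene cycD2 (139 ± 3.28 CPM, SD, n = 4) were not lowest there. The part of these groups in the low values of pcna1 and MCM6 was not tested.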

How the data were processed

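The deposited values are estimated counts of reads for each gene without normalization, which the authors made from strand-keeping RNA-seq libraries with UMI adaptors and ribosomal RNA removal, per the labels' protocols. The tools were HTSeq, STAR 2.7.10b, Trimmomatic (0.36 and 0.39), deepTools, UMI-tools and SAMtools, per the submitters' processing notes. The sources used here do not give their roles, the genome build, the annotation, the use of strand and UMIs, or the counting of shared reads; collapsed or uncollapsed copies would change the counting error. The 4 sample files equalled the joint table. Names came from the gene table of Zm-B73-REFERENCE-NAM-5.0 (48127 of 48174 matched).

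CPM used library totals. For count models values were rounded, filtered with filterByExpr (22752 genes) and scaled by TMM for edgeR 4.0.16 in R 4.3.3; DESeq2 1.42.0 was an alternative. Adjusted p-values are Benjamini-Hochberg at 0.05. The spread tests were tried on simulated data. The planted spreads were larger than those of the 3 genes, so the power at their spreads was not measured. The members and lists were chosen with earlier results of these data known. Named genes are the 3 genes, the 6 highest other list members, paralogs and the 3 nearest in pattern; others were named after their values were seen. The name prl1 was dropped from the list as ambiguous, and 1 further gene is not reported here. The planned sign-flip test of length-scaled ratios and the promoter motifs were not run, as lengths and sequences were not used here.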

Additional observations from a re-analysis of the deposited data

Results flagged for a closer look

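Of 47 values tried (genes of the replication, core histone, cyclin and retinoblastoma-related lists, their ratios and list sums), 4 passed Dixon's criterion for a single distant library (the gap to the nearest library divided by the range). Chance flags about 1 in 20, and the lists' members are not independent. None was RNRL1, pcna1 or MCM6, nor a ratio between them. SLD5 was at 12.4 CPM in replicate 1 against a mean of 10.05 CPM in the others (gap to range 0.902). In replicate 3, histone2b1 was at 207 against 202 CPM (0.881), cycD1 at 10.7 against 8.76 CPM (0.929), and the summed mitotic cyclins at 117 against 132 CPM (0.912).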

How the results depend on the processing

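Levels, log2 ratios and the detection count stayed within their limits under every scaling, rounding, pseudocount, detection and leave-one-out setting tried for them. For levels and log2 ratios the limit was the SD over the 4 libraries. Leaving out 1 library cannot move a mean of 4 by that much, and rounding leaves whole counts unchanged. Both detection alternatives, 0.5 CPM and 10 counts in every library, were looser than 1 CPM, which all 17 list genes already passed. Those settings could not have failed, so they show no stability. They are among the 119 of 140 alternative values that stayed on the same side of their threshold or within their limit. TMM factors ran from 0.996 to 1.005, which left that scaling little room to move a level. No paired analysis was possible because there is 1 group. Settings on the replication list's spread and low library, the members' spread without a replicate and the expansin sum without expB2 were chosen after seeing the data; its 12 genes lowest in replicate 3 stayed at 12 with TMM or DESeq2 size factors. With a replicate left out, RNRL1's adjusted p for counting error ran from 1.41e-05 to 0.0546, the count of all genes varying beyond counting error from 3063 to 5229 (5919 with all libraries) and of list genes from 7 to 13. In edgeR's test against genes of equal abundance 9 genes passed. There were 108 when every gene with counts was kept, 5 under a non-robust prior, 2 to 99 when 1 replicate was dropped, and 174 by DESeq2's outlier rule; the cause was not tested, and RNRL1, pcna1 and MCM6 were in none of these. With a replicate left out, likeness places ran as follows: pcna1 from RNRL1 46.0% to 79.0%, RNRL1 from pcna1 26.3% to 65.9%, MCM6 from pcna1 0.746% to 15.5%, RNRL1 from MCM6 26.4% to 76.3%, and pcna1 from MCM6 1.39% to 22.3%. With 4 libraries, depth limits a pcna1 to MCM6 change to what the ratio intervals show.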
